A study of Mus musculus with 4 samples.

Results

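The matrix proteolysis genes whose names on the array begin with Mmp and a number, Timp and a number, or Adamts were examined in left ventricular RNA of KDM5B-KO mice and their WT littermates on Day 7 after myocardial infarction (MI). This rule took 48 of the 20051 named genes on the array, namely 21 Mmp, 4 Timp, 18 Adamts and 5 Adamtsl genes, which were measured by 84 probes. A gene was represented by its brightest probe over the 4 arrays, and it was tested when the probe passed the scanner's call of well above background on the 2 WT arrays, the 2 KO arrays or all 4. Of the 48 genes, 41 were tested, and Mmp1a, Mmp7, Mmp10, Mmp12, Mmp20, Mmp21 and Adamts13 did not meet this rule. The study asked how loss of KDM5B, a demethylase of histone H3 lysine 4, affects scarring after MI. Total RNA of 2 WT and 2 KDM5B-KO samples was hybridised, each sample on its own Agilent one-colour array, and the titles number the arrays 2 and 3 within each genotype. The mice were described as C57BL/6 males of 8 to 10 weeks, all with the left anterior descending coronary artery permanently tied, so no uninjured heart entered the comparison. KO mice carried a CRISPR/Cas9 deletion of the JmjC-domain part of Kdm5b with a frameshift, no limit to a cell type was described, and WT mice were littermates.

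Matrix metalloproteinases (MMPs) are zinc enzymes that cut collagens, elastin, fibronectin and other proteins of the extracellular matrix, and most are made as inactive precursors. Tissue inhibitors of metalloproteinases (TIMPs) bind the active enzymes and block them. ADAMTS enzymes are secreted metalloproteinases with thrombospondin repeats that trim procollagens or cut proteoglycans such as versican and aggrecan, and ADAMTS-like (Adamtsl) proteins share the repeats but have no enzyme domain. In the infarcted ventricle, leukocytes, fibroblasts and surviving muscle cells all contribute to this system while dead muscle is cleared and scar is laid down.

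The targeted gene was checked first. The brighter Kdm5b probe read -0.87 and -1.81 on WT 2 and 3 and -2.40 and -2.26 on KO 2 and 3, as log2 signal with the array's 75th percentile set to zero, the scale used for every level below, with KO below WT throughout. It was still well above background in KO, and whether the probe lies in the deleted stretch was not determined. The number 2 arrays carried Xist signal and lacked Y-linked signal, while the number 3 arrays showed the reverse, against the label of male on all 4 samples, so most differences are also given within the number, with 1 array per genotype and no replicate. All arrays lay on 1 slide scanned on 1 day, with WT at positions 1 and 2 and KO at positions 3 and 4, so position and genotype cannot be told apart. KO 2 stood apart in the atrial markers Sln, Myl7 and Myl4, at 5.95, 6.39 and 5.46, although the tissue is labelled left ventricle. Its mean over 5 tested markers was 5.59 against 0.29 to 1.44 on the other 3 arrays. Sln was among the 5 only because both KO arrays, the higher group, passed the background call, and it read -7.23 on WT 2, which widens this gap. Nppa was little higher on KO 2, at 9.24 against 8.54 to 8.81, and Nr2f2 was lowest there, at 0.90 against 1.21 to 1.95. Bmp10 was not well above background on any array. Since whole tissue was measured, fewer cells of a type and less RNA per cell cannot be told apart. The labels do not say whether the samples of a genotype came from separate mice, so p-values measure only the spread between these samples, and the smallest two-sided p that an exact permutation test allows is 0.3333.

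Most matrix proteolysis genes read lower in KO, and none passed the test. Of the 41 tested genes, 29 had a lower and 12 a higher KO mean, whereas 55.1% of all tested genes had a higher KO mean. The median KO minus WT difference was -0.59 over the 41 genes and 0.036 over all 15041 tested genes. With normexp background correction the median of the 41 genes shrank to -0.12, with 17 higher and 24 lower, beside a median of 0.13 over all tested probes. By limma, 0 of the 41 genes reached an adjusted p under 0.05 with a fold change over 2, as did 0% of all tested probes. Their lowest adjusted p was 0.9999. Mmp3 and Adamts8, 2 of the 41 genes, had an unadjusted limma p under 0.05, beside 1.41% of all tested genes. Over 2-fold higher in KO was 1 gene, Adamts8, beside 1.13% of all genes. Over 2-fold lower were 5 genes, Mmp3, Mmp9, Mmp16, Mmp25 and Adamts16, beside 2.33% of all genes. Of these, Mmp25 and Adamts16 were tested only through the WT arrays, the group with the higher mean. With all 4 arrays above background 3 genes were over 2-fold lower, and with normexp background correction 2. The KO arrays both exceeded the WT arrays for 3 genes (Mmp24, Adamts1 and Adamts8), beside 13.3% of all genes, and both lay below them for 7 (Mmp2, Mmp3, Mmp16, Mmp25, Mmp28, Adamts10 and Adamts15), beside 8.9%. Without KO 2 the count was 21 higher and 20 lower with a median of 0.015, beside a median of 0.020 over all tested probes. The share of all genes was not counted for this fit. The excess of lower genes by the mean thus rested largely on that array. Within number 3, the median difference was -0.10, beside 0.028 over all genes.

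**Figure D1:**
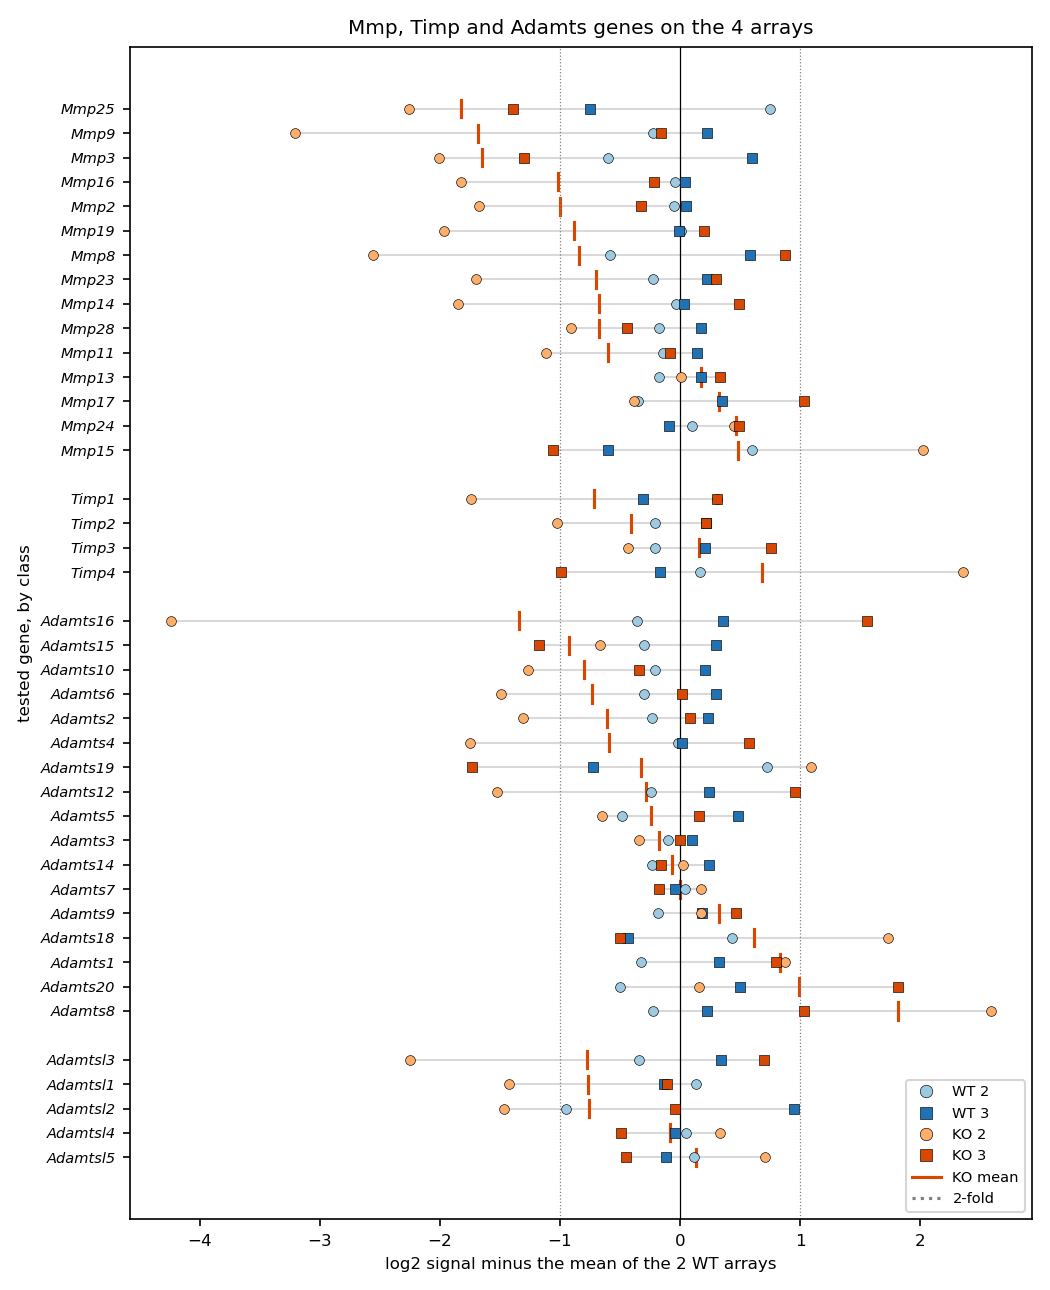
Log2 signal of the 41 tested genes on each array, minus the mean of the 2 WT arrays, by class and ordered by the KO mean (orange bar). Dotted lines mark a 2-fold difference. The KO 2 points (light orange circles) lie far left for most Mmp genes, and Adamts8 is the gene whose KO mean lies beyond the right dotted line.

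Within the numbers, the genes differed mainly at number 2. KO 2 lay more than 2-fold below WT 2 for 18 of the 41 genes, beside 9.37% of all genes, and more than 2-fold above it for 5, beside 6.94%. Of the 18, Mmp8, Mmp25 and Adamts16 were tested through the WT arrays alone. The 5 were Mmp15, Timp4, Adamts1, Adamts8 and Adamts18. KO 3 lay more than 2-fold below WT 3 for 3 genes, Mmp3, Adamts15 and Adamts19, beside 1.76% of all genes, and above it for 2, Adamts16 and Adamts20, beside 2.57%. Adamts19 was tested through the WT arrays alone and Adamts20 through the KO arrays alone. The median difference of the 41 genes was -0.73 at number 2 and -0.10 at number 3. KO was lower at both numbers for 14 genes, beside 18.3% of all genes, and higher at both for 6, beside 25.8%. The sign changed between the numbers for the others, with 13 lower at number 2 only, beside 28.2% of all genes, and 8 lower at number 3 only, beside 27.6%. By class, the median differences at number 2 and number 3 were -1.48 and -0.23 for the 15 Mmp genes, -0.52 and 0.28 for the 4 Timp genes, -0.16 and -0.10 for the 17 Adamts genes, and -0.52 and -0.34 for the 5 Adamtsl genes. Differences between the numbers were not tested.

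**Figure D2:**
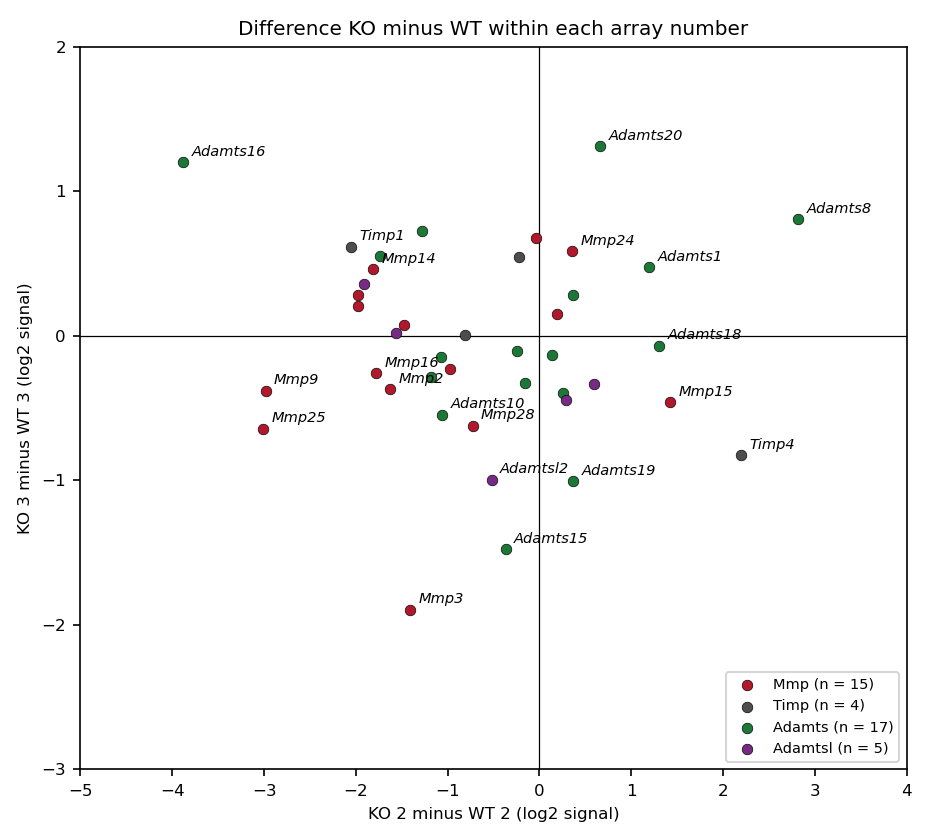
KO minus WT difference in log2 signal at number 2 (x axis) and at number 3 (y axis) for the 41 tested genes, coloured by class. Most Mmp points lie left of zero, Mmp3 is low on both axes, Adamts8 is high on both, and Adamts16 lies at -3.88 and 1.20.

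The gelatinases degrade denatured collagen and basement membrane. Mmp2 (gelatinase A, a fibroblast product; probe on chromosome 8, 95376840 to 95376899, build mm9, as for all probe positions here) read 3.87 and 3.97 on WT 2 and 3 and 2.24 and 3.60 on KO 2 and 3. KO was below WT throughout, by -1.63 at number 2 and -0.37 at number 3. The mean difference was -0.999 with a standard error (SE) of 0.54, just short of the 2-fold limit, and -0.32 without KO 2. Mmp9 (gelatinase B, stored in neutrophils and made by macrophages; chromosome 2, 164780303 to 164780362) read -1.84 and -1.40 on WT 2 and 3 and -4.82 and -1.78 on KO 2 and 3. KO 2 was low, while KO 3 lay between the WT arrays. The mean difference was -1.68 (SE 1.14), made up of -2.98 at number 2 and -0.38 at number 3, or -0.16 if KO 2 was left out, and it was -0.79 with normexp background correction, under the 2-fold limit. The second Mmp9 probe differed by -1.99 in the same direction. On the same arrays the mean of the 7 tested neutrophil markers was -0.72, -0.38, -2.95 and -0.46, with S100a9, an abundant neutrophil granule protein, at 4.39, 4.67, 1.98 and 4.66. The part of these cells in the Mmp9 difference was not tested.

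Collagenases make the first cut in fibrillar collagen. Mmp8 (neutrophil collagenase; chromosome 9, 7568238 to 7568297) read -3.80 and -2.63 on WT 2 and 3 and -5.77 and -2.34 on KO 2 and 3, and was not well above background on KO 2. KO 3 was the highest of the 4 arrays and KO 2 the lowest. Its difference of -0.84 (SE 1.34) became 0.039 with normexp background correction and 0.87 without KO 2. Mmp13 (collagenase-3, the main interstitial collagenase of mice; chromosome 9, 7282762 to 7282821) read -3.72, -3.36, -3.53 and -3.21, so that the genotypes overlapped within a narrow range. The difference was 0.17 (SE 0.27), similar in size at number 2 (0.19) and number 3 (0.15).

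Mmp3 (stromelysin-1, which cuts many matrix proteins and activates other MMP precursors; chromosome 9, 7455751 to 7455810) was over 2-fold lower in KO at both numbers. It read 0.44 and 1.64 on WT 2 and 3 and -0.96 and -0.25 on KO 2 and 3. The KO arrays were the 2 lowest, and the difference was -1.41 at number 2 and -1.90 at number 3. The mean difference was -1.65 (SE 0.55), a 3.14-fold lower signal in KO, with an unadjusted limma p of 0.0427 and an adjusted p of 0.9999. With any array left out it ran from -2.25 to -1.05, the smallest without WT 3. Its 1 probe leaves no second measurement on the array.

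Mmp3, Mmp8 and Mmp13 lie in a cluster of Mmp genes on chromosome 9 that the array covered with 8 genes, in the order Mmp13, Mmp12, Mmp3, Mmp1a, Mmp10, Mmp8, Mmp20 and Mmp7 in RefSeq (GRCm38.p6). Promoters of several of these genes are known for a site of the transcription factor AP-1, so the 250 bases before each RefSeq start were searched for TGANTCA on both strands, with N for any base. A promoter window was given for 33 of the 48 genes. None was given for Mmp2, Mmp9, Mmp16, Mmp17, Mmp19, Adamts4 to Adamts8, Adamts10, Adamts15, Adamts16, Adamts19 or Adamtsl1, so these were not searched. Of the 33, 7 held a match, all in this cluster (Mmp1a, Mmp3, Mmp7, Mmp10, Mmp12, Mmp13 and Mmp20). Some genes have more than 1 window, and by window 7 of their 36 held a match, against 6.75% of all 32851 windows. Of the same 36 windows, 9 held TATAAA, against 12.4% of all windows, and 0 held TGACGTCA, against 1.55%. The 100 bases before the start are shown for the 3 tested genes of the cluster and for Mmp12, with the AP-1 letters in capitals. The sequences are from RefSeq, build GRCm38.p6, 5′ to 3′ along the gene:
Mmp13 (chr9:7272414-7272513, + strand): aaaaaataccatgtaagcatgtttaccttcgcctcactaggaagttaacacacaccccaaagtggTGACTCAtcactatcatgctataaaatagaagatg
Mmp12 (chr9:7347274-7347373, + strand): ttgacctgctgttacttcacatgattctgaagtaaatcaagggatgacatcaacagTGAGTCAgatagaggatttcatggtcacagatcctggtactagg
Mmp3 (chr9:7445722-7445821, + strand): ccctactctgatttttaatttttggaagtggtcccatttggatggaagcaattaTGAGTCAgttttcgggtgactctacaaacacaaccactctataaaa
Mmp8 (chr9:7558329-7558428, + strand): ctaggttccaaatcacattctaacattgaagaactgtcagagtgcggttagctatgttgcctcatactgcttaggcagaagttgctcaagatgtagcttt
The capitals begin 35 bases before the start in Mmp13, 44 in Mmp12 (the second of its 2 starts, the first having no match) and 46 in Mmp3, and Mmp8 had no match in the window. The windows of Mmp3 and Mmp13 both hold the letters, and these genes differed by -1.65 and 0.17 between the genotypes, neither past the test. A match describes the sequence only, and any part of AP-1 in these differences was not tested.

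Mmp12 (macrophage elastase) was well above background on WT 3, at -2.24, and on KO 3, at -1.18, and on neither number 2 array, where it read -5.44 and -6.05, so it entered no test. The other untested genes of the cluster, Mmp1a, Mmp10, Mmp20 and Mmp7, read between -8.16 and -5.56 and were not well above background on any array. The macrophage markers, 11 tested genes, averaged 3.05 and 3.57 on WT 2 and 3 and 2.11 and 3.92 on KO 2 and 3, with KO 2 lowest and KO 3 highest. Of the 11, only Cd163 had a higher KO mean, and it was highest on KO 2, at 0.47 against -1.41 to -0.91 elsewhere. The part of macrophages in the Mmp12 signal was not tested.

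**Figure D3:**
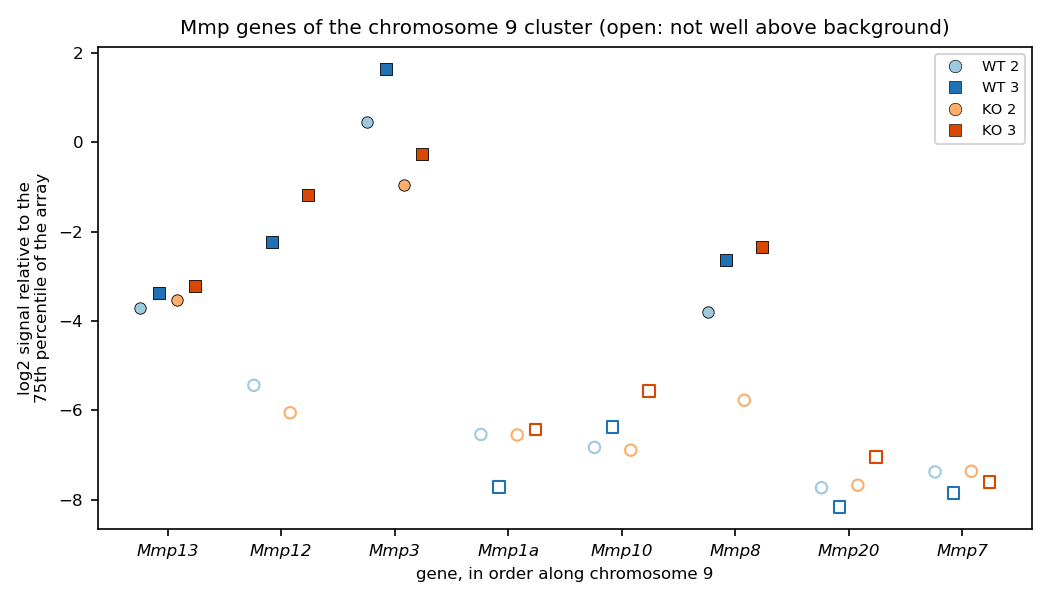
Log2 signal, with the 75th percentile of each array at zero, for the 8 Mmp genes of the chromosome 9 cluster, in their order along the chromosome, with open symbols where the probe was not well above background. Mmp3 is lower on both KO arrays, Mmp13 is level, and Mmp12 is filled on the number 3 arrays only. Heights of different genes are not comparable, since each has its own probe.

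Membrane-type MMPs are anchored at the cell surface. Mmp14 (MT1-MMP, which activates the MMP-2 precursor) read 5.23 and 5.30 on WT 2 and 3 and 3.42 and 5.76 on KO 2 and 3. The WT arrays lay close together, with KO 2 below and KO 3 above them. Its difference of -0.68 (SE 0.88) was -1.82 at number 2 and 0.46 at number 3. Without KO 2 it turned to 0.49. The second Mmp14 probe differed by -0.66. Mmp15 (MT2-MMP) ran the other way, at -0.77, -1.97, 0.65 and -2.43, with a difference of 1.42 at number 2 and -0.46 at number 3. Mmp16 (MT3-MMP) read -1.38, -1.29, -3.16 and -1.55, and the KO arrays were the 2 lowest. Its mean difference of -1.02 (SE 0.62) was only just over 2-fold and rested on KO 2, with -1.78 at number 2 and -0.26 at number 3. Leaving out KO 2 brought it to -0.21. A dimmer Mmp16 probe, which only the KO arrays detected above background, differed by 1.62 in the opposite direction, and the mean of the probes by 0.30.

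Mmp24 (MT5-MMP) was dim but even within the genotypes, at -5.15 and -5.34 on WT 2 and 3 and -4.80 and -4.76 on KO 2 and 3. The KO arrays were the 2 highest, with a difference of 0.47 (SE 0.21), from 0.35 at number 2 and 0.58 at number 3. Mmp25 (MT6-MMP, a neutrophil enzyme) read -3.97, -5.47, -6.99 and -6.12, and only the WT arrays detected it above background. It was thus tested through the WT arrays alone, the higher group. Measured against the lowest signal well above background on each KO array, its signal was 1.87-fold higher in WT. This value is no firm limit, since it rested on WT 2, without which it was 1.11-fold. The measured difference was -1.83 (SE 0.66), from -3.01 at number 2 and -0.64 at number 3. It was -1.08 without WT 2, and with normexp correction it was 0.072. Mmp17 (MT4-MMP) differed by 0.32, with -0.033 at number 2 and 0.68 at number 3, and its arrays overlapped.

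Of the remaining secreted or atypical enzymes, Mmp19, Mmp23 and Mmp11 shared the pattern of a low KO 2. Mmp19, which cuts basement membrane proteins, read -1.71 and -1.72 on WT 2 and 3 and -3.68 and -1.52 on KO 2 and 3. Its difference of -0.88 (SE 0.82) was -1.97 at number 2 and 0.21 at number 3. Mmp23, which is held in the membrane by its amino end, read 2.98, 3.42, 1.51 and 3.50. KO 3 was the highest array here too, and the difference of -0.70 (SE 0.77) became 0.30 without KO 2. Mmp11 (stromelysin-3) differed by -0.60, with -0.98 at number 2 and -0.23 at number 3. Mmp28 (epilysin) was the exception, with KO arrays at -3.25 and -2.79 below the WT arrays at -2.52 and -2.17. Its difference of -0.67 (SE 0.29) was alike at number 2 (-0.73) and number 3 (-0.62), and it was -0.30 with normexp.

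The 4 inhibitors were all well above background on every array, and no Timp gene differed in 1 direction on both numbers. Timp1, the inducible and X-linked inhibitor, read 6.82 and 6.19 on WT 2 and 3 and 4.77 and 6.81 on KO 2 and 3. KO 2 was low and KO 3 nearly equalled WT 2, with differences of -2.05 at number 2 and 0.62 at number 3. Its second probe gave the same picture, with a mean difference of -0.86 against -0.72 for the brighter probe (SE 0.81). Timp2, which inhibits MMP-2 and also helps MMP-14 to activate it, read 6.84, 7.26, 6.02 and 7.27 and differed by -0.41 (SE 0.52), with -0.81 at number 2 and 0.0030 at number 3, and by -0.65 with quantile normalization. Timp3, the matrix-bound inhibitor that also blocks several ADAMTS enzymes, read 5.13, 5.54, 4.90 and 6.09. Its difference was 0.16 (SE 0.50), from -0.23 at number 2 and 0.55 at number 3, and -0.049 with quantile normalization. Timp4, an inhibitor prominent in heart muscle, was the gene with the largest opposite swing of the 4. It read -1.85, -2.19, 0.34 and -3.01, highest on KO 2 and lowest on KO 3, with differences of 2.19 at number 2 and -0.82 at number 3. The cardiomyocyte markers, 16 tested genes, had the same order of arrays, with means of 6.44 and 5.25 on WT 2 and 3 and 7.55 and 4.46 on KO 2 and 3, and all 16 had a higher signal on KO 2 than WT 2 but a lower one on KO 3 than WT 3. Their part in the Timp4 difference was not tested. Timp1, Timp4 and Timp3 lie within the genes Syn1, Syn2 and Syn3, whose differences were 0.29, 0.40 and 0.21, none past the test.

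Adamts8 was set among its relatives because earlier results of these data had singled it out, so its values are a description. ADAMTS8 belongs to the enzymes that cut the proteoglycans aggrecan and versican and is known as an inhibitor of vessel growth. Its brighter probe (chromosome 9, 30770220 to 30770279) read -1.93 and -1.47 on WT 2 and 3 and 0.89 and -0.67 on KO 2 and 3. The KO arrays were the 2 highest, KO 2 more so. The difference was 2.82 at number 2 and 0.81 at number 3, with a mean of 1.81 (SE 0.63), a 3.51-fold higher signal in KO, and an adjusted limma p of 0.9999. The second probe, which ends where the first begins, read -2.63, -2.41, 0.49 and -1.57 and differed by 1.98. Without KO 2 the difference was 1.03, and with the other arrays left out in turn it ran up to 2.59. Among the 17 tested Adamts genes it was the only one over 2-fold higher in KO, both in the analysis of all probes and with normexp, while quantile normalization and the median shift added Adamts20.

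The neighbour of Adamts8 on chromosome 9, Adamts15, belongs to the same group of enzymes and differed in the other direction. Adamts15 (30707033 to 30707092) read 1.10 and 1.70 on WT 2 and 3 and 0.74 and 0.22 on KO 2 and 3. KO was below WT throughout, KO 3 being lowest, and the difference of -0.92 (SE 0.35) was larger at number 3 (-1.48) than at number 2 (-0.37). The difference between the neighbours was not tested.

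Adamts1 and Adamts5 are neighbours on chromosome 16 and cut versican and aggrecan. Adamts1 (85795044 to 85795103), an inflammation-induced enzyme that also restrains vessel growth, read 2.06 and 2.71 on WT 2 and 3 and 3.26 and 3.19 on KO 2 and 3. The KO arrays were nearly equal and both lay above the WT arrays. The difference was 0.84 (SE 0.31), from 1.20 at number 2 and 0.47 at number 3, and 0.51 without WT 2, and a second probe gave 0.89. Adamts5 read 2.08, 3.05, 1.92 and 2.72, with a wide overlap, and differed by -0.24 (SE 0.50), with -0.16 at number 2 and -0.33 at number 3, which turned to 0.24 without WT 3 and 0.16 without KO 2. Adamts4, the other main aggrecanase, read -1.73, -1.70, -3.47 and -1.14. The WT arrays were nearly equal, KO 2 was low and KO 3 high, and the difference was -1.73 at number 2 and 0.55 at number 3.

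Adamts9 and Adamts20 are versican-cutting enzymes close to each other in structure. Adamts9 read 0.011 and 0.38 on WT 2 and 3 and 0.37 and 0.66 on KO 2 and 3, and all 4 of its probes were higher in KO by the mean, by 0.23 to 0.71. The brightest differed by 0.32 (SE 0.26), with 0.36 at number 2 and 0.28 at number 3 and overlapping arrays. Adamts20 was dim, at -5.33, -4.33, -4.67 and -3.01, and was not well above background on 1 WT array. Its difference of 0.99 (SE 0.73) was 0.66 at number 2 and 1.32 at number 3. Of the 7 genes of this proteoglycan-cleaving group, 4 (Adamts1, Adamts8, Adamts9 and Adamts20) were higher in KO at both numbers, beside 25.8% of all genes, and Adamts8 was among them by choice. Adamts20 was among them only because both KO arrays, the higher group, passed the background call.

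**Figure D4:**
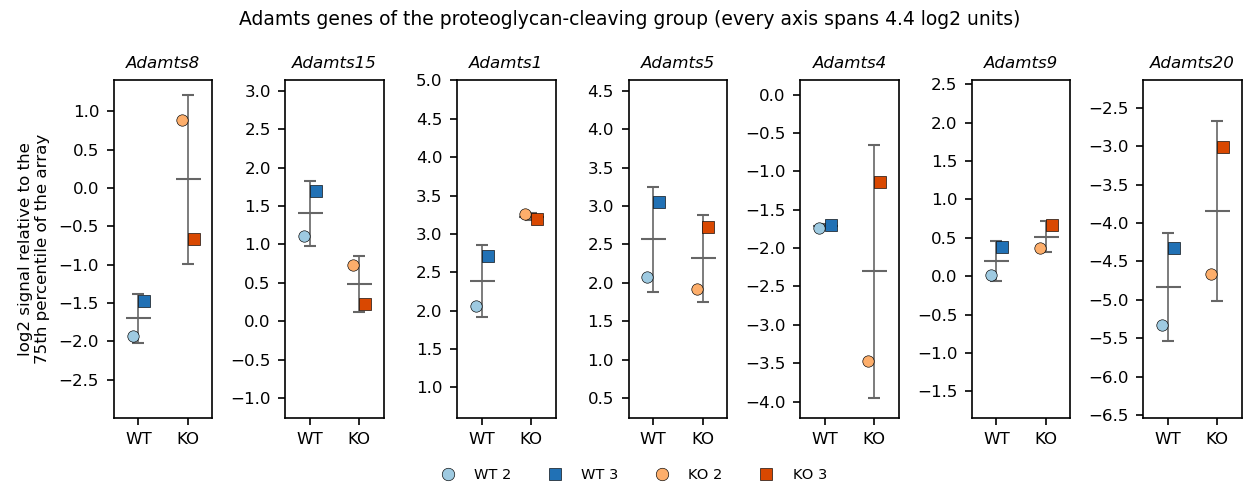
Log2 signal, with the 75th percentile of each array at zero, for Adamts8 and 6 relatives, with grey bars for the mean and SD of 2 arrays. Every axis spans the same range, so distances compare between panels and heights do not. Adamts8 and Adamts1 are higher on both KO arrays, Adamts15 is lower on both, and Adamts4 has its lowest and highest points in KO.

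The procollagen N-proteinases Adamts2, Adamts3 and Adamts14 remove the amino-terminal propeptide of fibrillar procollagens. Adamts2 read 6.04 and 6.50 on WT 2 and 3 and 4.97 and 6.35 on KO 2 and 3. KO 2 alone lay outside the WT range, and the difference was -0.61 (SE 0.57), with the other 3 probes between -0.75 and -0.43. It was -1.07 at number 2 and -0.15 at number 3. Without KO 2 it was 0.082. Adamts3 read -1.60 and -1.41 on WT 2 and 3 and -1.85 and -1.51 on KO 2 and 3, with overlapping genotypes, and differed by -0.17 (SE 0.25) by this brightest probe and by -1.07 by a dimmer one. Adamts14 read -2.69 and -2.21 on WT 2 and 3 and -2.43 and -2.60 on KO 2 and 3, both KO arrays lying between the WT arrays. Its difference was -0.067 (SE 0.27), from 0.26 at number 2 and -0.39 at number 3, and 0.077 with normexp. On the same arrays the procollagen gene Col1a1 read 7.50, 7.27, 6.30 and 7.43, also lowest on KO 2.

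Adamts10, which binds fibrillin microfibrils, was lower on both KO arrays, at 0.87 and 1.28 on WT 2 and 3 and -0.20 and 0.73 on KO 2 and 3. Its difference was -0.80 (SE 0.42), -1.06 at number 2 and -0.55 at number 3, and the other 2 probes gave -0.85 and -0.61. Leaving out KO 2 brought it to -0.34. Adamts12, which cuts the cartilage protein COMP, read 0.71, 1.18, -0.58 and 1.91. Its genotypes overlapped fully, with differences of -1.28 at number 2 and 0.72 at number 3, and its 3 probes differed in sign. Adamts16, a fibronectin-cutting enzyme, had the widest spread, at -2.55, -1.83, -6.43 and -0.63, and was not well above background on KO 2. It was thus tested only through the WT arrays, the group with the higher mean. Its mean difference of -1.34 (SE 2.14) was 1.56 without KO 2 and -0.092 with normexp. Adamts6, Adamts7, Adamts18 and Adamts19 differed by between -0.74 and 0.62, each with overlapping arrays.

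Of the ADAMTS-like genes, 4 of 5 had a lower KO mean, whereas 55.1% of all genes had a higher one. None had separated genotypes by its brightest probe. A dimmer Adamtsl1 probe was lower on both KO arrays than on both WT arrays, with a difference of -0.95. Adamtsl2, whose product binds fibrillin and the latent TGF-β binding protein, read 1.52 and 3.42 on WT 2 and 3 and 0.997 and 2.42 on KO 2 and 3. Its WT arrays were themselves far apart, and the difference of -0.76 (SE 0.89), -0.52 at number 2 and -0.995 at number 3, was 0.19 without WT 3. Differences of the 5 ran from -0.78 to 0.13.

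Other genes of matrix proteolysis, such as plasminogen activators, serpins, cathepsins and ADAM sheddases, were counted from a list of 45, of which 44 were on the array and 39 were tested. By limma 0 passed, 11 were higher in KO (55.1% of all genes) and 28 lower, and 1 had an unadjusted p under 0.05 (1.41%). Over 2-fold, 1 was higher (1.13% of all genes) and 2 were lower (2.33%), and the KO arrays both exceeded the WT arrays for 3 (13.3%) and both lay below them for 6 (8.9%). Their median was -0.11, with -0.52 at number 2 and 0.11 at number 3, against -0.59 for the Mmp, Timp and Adamts genes. Of 18 tested substrates of these enzymes 0 passed, and 2 were higher in KO, beside 55.1% of all genes, and 16 lower. Over 2-fold, 0 were higher (1.13% of all genes) and 4 were lower (2.33%), namely Eln, Thbs2, Comp and Fbln1. Only Fbln1, with a difference of -1.45 and lower KO signal at both numbers, had an unadjusted limma p under 0.05 (1.41%). For 11, KO was lower at number 2 and higher at number 3, beside 28.2% of all genes. Vcan, the versican gene and a substrate of the Adamts8 group, read 0.67 and 0.29 on WT 2 and 3 and -0.18 and 0.85 on KO 2 and 3, with overlapping genotypes.

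The array means of the classes and of cell type markers were set side by side. The mean of the 15 Mmp genes was -0.77 and -0.62 on WT 2 and 3 and -1.96 and -0.78 on KO 2 and 3, so only KO 2 stood apart. The 17 Adamts genes averaged -0.76, -0.47, -0.99 and -0.42, and the 4 Timp genes 4.23, 4.20, 4.01 and 4.29. Fibroblast and myofibroblast markers, 12 of 12 tested, averaged 4.86, 5.01, 3.91 and 4.98, with KO 2 low. Mesothelial and epicardial markers, 7 of 7 tested, averaged -0.14, 0.39, -1.65 and 1.01, low on KO 2 and high on KO 3. Of these, Wt1 and Aldh1a2 were instead higher on KO 2 than on both WT arrays. Endothelial markers, 11 of 11 tested, averaged 2.26, 2.36, 2.77 and 2.08, and 3 of 7 adipocyte markers were tested and averaged -1.60, -1.57, 0.73 and -1.38. Of these 3, Retn was tested only through the KO arrays, the higher group. The part of these cell types in the differences of the Mmp, Timp and Adamts genes was not tested.

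**Figure D5:**
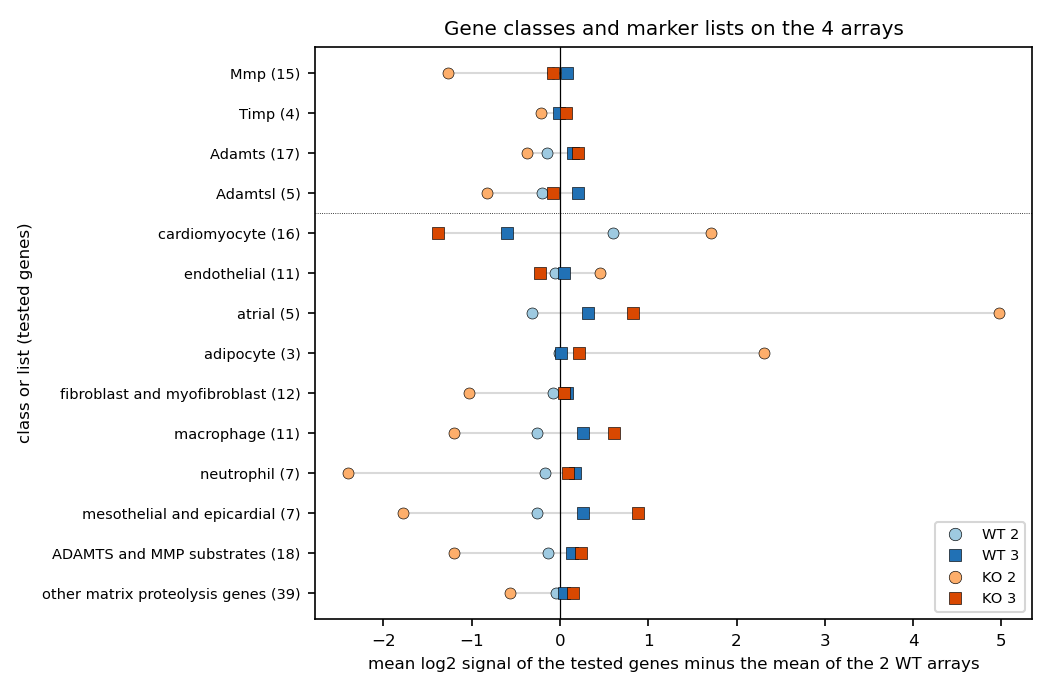
Mean log2 signal of the tested genes of each class (above the dotted line) and of each marker or gene list (below it) on the 4 arrays, minus the mean of the 2 WT arrays, with the number of tested genes in brackets. KO 2 is the lowest array for every class and for the fibroblast, macrophage, neutrophil, mesothelial, substrate and other proteolysis lists. It is the highest for the cardiomyocyte, endothelial, atrial and adipocyte lists.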

How the data were processed

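Per the labels and headers, the authors labelled total RNA with Cy3 and deposited the intensity values of Agilent Whole Mouse Genome arrays (Feature Extraction 10.7.3.1, grid on mm9). A deposited table of log2 values, made by the authors with GeneSpring, served only as an alternative, and its normalization is not given in the sources used here. Its differences matched those after quantile normalization closely (gap of 0.0014 at the 99th percentile of probes and 0.060 at most), so these alternatives are in effect the same. Groups came from the titles. Spots of a probe were averaged, leaving out control and outlier-flagged spots (92 to 116 per array), and the log2 processed intensity was shifted by each array's 75th percentile over 41174 probes, of which 68.2% to 72.0% per array were well above background and 0 saturated. The 28305 tested probes were compared by limma 3.58.1 (lmFit, eBayes; R 4.3.3), adjusted after Benjamini and Hochberg over all of them. The script was tested on simulated data, and the number of arrays limits the precision. All 48 genes, and 18673 of the 20051 named genes, carry a symbol of the RefSeq table of GRCm38.p6, and 1378 an older one. Where probes lie within exons was not examined. Genes, lists and rules were chosen with earlier results of these data known. Array values are given for 26 genes of fixed interest, where tested, and for every tested gene over 2-fold or with separated genotypes. Those of Mmp15, S100a9, Col1a1, Vcan, Cd163 and the single atrial markers were added after they were seen. Smooth muscle and pericyte markers (8 of 8 tested) had medians of -0.29 at number 2 and 0.12 at number 3. Alternatives were normexp (offset 50), quantile normalization, a median shift, the deposited log2 table, no filter, all 4 arrays above background, a replicate block, leaving out each array, trend and robust eBayes, the mean of all probes and the methods' t-test. A slide or scan block was not possible with 1 slide and 1 scan day.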

Additional observations from a re-analysis of the deposited data

Results flagged for a closer look

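Adamts16 differed between the genotypes by -3.88 at number 2 and by 1.20 at number 3, the only tested gene of the 41 with differences of more than 1 log2 unit in opposite directions. It rests on 1 array per genotype and number, was not well above background on KO 2, and the difference between the numbers was not tested. Mmp12 entered no comparison because it was well above background on 1 array of each genotype only, yet it read -2.24 on WT 3 and -1.18 on KO 3, against -5.44 and -6.05 on the number 2 arrays, where it was not well above background.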

How the results depend on the processing

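In every setting 0 of the tested genes passed the adjusted threshold, and the lowest adjusted p over all probes was 0.128, without KO 3, where the lone KO array was assumed to vary like the WT group. With 2 arrays against 2 this says nothing about stability. The methods' t-test gave 88 probes and 0 of the 41 genes at the study's cutoffs without adjustment, and 0 after it. The arrays share numbers between genotypes, and the deviations of same-numbered arrays correlated at 0.57, but the labels do not say that a number pairs mice. With the number as a replicate block, 602 probes had an unadjusted limma p under 0.05 instead of 410, and 0 passed. The differences themselves cannot change under this block, since each number holds 1 array per genotype. With normexp the median of all probes was 0.13, 2 genes were over 2-fold lower, 5 had both KO arrays above both WT arrays, and the medians were -0.043 for Adamts genes, -0.12 for Adamtsl genes, -0.35 for all at number 2 and 0.0050 at number 3, which turned its sign, while Adamts14, Mmp8 and Mmp25 turned to 0.077, 0.039 and 0.072, and Mmp9, Mmp16 and Adamts16 shrank to -0.79, -0.66 and -0.092, under the 2-fold limit, and Mmp19 and Adamts4 to -0.45 and -0.24. With no filter these last medians were -0.31 and 0.010. Timp3 turned to -0.049 in the deposited log2 values and likewise after quantile normalization, and Mmp16 to 0.30 with the mean of all probes. Over 2-fold higher were 2 genes with quantile normalization, the median shift or the authors' values, and 3 were over 2-fold lower with all 4 arrays above background. With an array left out, the genes over 2-fold higher numbered 3 to 5 and those lower 5 to 21, the most without KO 3. The median ran from -1.70 to -0.084 for Mmp, -0.73 to 0.26 for Timp (0.086 without WT 3), -0.34 to 0.082 for Adamts and -1.43 to -0.11 for Adamtsl genes. Without KO 2, 12 of the 30 named tested genes changed sign. The ranges of the genes that turned with some array left out were -1.75 to 0.57 for Adamts4, -0.73 to 0.24 for Adamts5, -1.30 to 0.082 for Adamts2, -0.30 to 0.17 for Adamts14, -1.52 to 0.96 for Adamts12, -1.71 to 0.19 for Adamtsl2, -4.24 to 1.56 for Adamts16, -2.56 to 0.87 for Mmp8, -0.0054 to 0.35 for Mmp13, -1.85 to 0.49 for Mmp14, -1.96 to 0.20 for Mmp19, -1.70 to 0.30 for Mmp23, -1.74 to 0.31 for Timp1, -1.03 to 0.22 for Timp2, -0.43 to 0.75 for Timp3 and -0.99 to 2.36 for Timp4. The causes were not tested.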
